A study of Mus musculus with 7 samples.

Results

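The probes for voltage- and ligand-gated ion channel genes were examined on 7 two-colour arrays of NIH3T3 cells, a permanent fibroblast line from mouse embryos. Members were the probes whose single annotated gene symbol starts with Kcn, Cacna, Cacnb, Cacng, Gabr followed by a, b, g, d or r, Gria, Grik, Grin or Chrn, or with Scn or Asic followed by a digit. They numbered 91 probes for 70 genes among 20355 probes on the array, whose single symbols covered 9930 genes. Of these, 59 probes for 46 genes were measured at 10 h on 2 or more arrays and at 3 h on 3 or more and entered the fit, which held 11559 probes.

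The treated groups were fibroblasts overexpressing Acid1, studied 10 h after treatment on 3 arrays and 3 h after treatment on 4 arrays. On every array the treated RNA was hybridised against RNA of non-treated fibroblasts. The treated RNA carried Cy5 in replicates 1 and 2 of both times, and Cy3 in replicate 3 at 10 h and in replicates 3 and 4 at 3 h. The labels say neither what the treatment was nor what Acid1 stands for, and they do not say whether the non-treated cells carried Acid1. They name no clone, vector or promoter either. Each value is a log2 ratio, read here as treated over non-treated. No label states this direction, so the signs below rest on that reading. Each array repeats a single extreme value, treated here as not measured. It was 16.05, 16.21, 17.06 and 16.80 on the arrays with treated RNA in Cy5. With treated RNA in Cy3 it was -15.98, -16.71 and -16.09, so its sign turned with the dye. Read as treated over non-treated, it stands for more Cy5 on every array. Read as Cy5 over Cy3, it stands for more treated RNA on every array. Which of these holds was not tested. The ratio against 0 leaves out the spread of the non-treated cells. Separate cultures are not mentioned in the labels, and the p-values therefore cover only array-to-array spread, which may be technical. The files give ratios and no levels, and fewer cells of a type and less RNA per cell cannot be told apart in such bulk RNA.

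Ion channels are membrane proteins that let selected ions cross when a gate opens. Voltage-gated potassium, calcium and sodium channels open on a change of membrane potential, and ligand-gated channels open when a transmitter or a proton binds. They are best known from neurons and muscle, where they carry electrical signals, and fibroblasts express fewer of them. The symbol rule also takes in genes whose products are not voltage- or ligand-gated pores. Among them are the Kcnip, Kcnab, Cacnb and Cacng families, whose products bind to pore-forming subunits, the inward rectifier and two-pore potassium channels, and Grina, a membrane protein that is not a glutamate receptor subunit.

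Promoter windows of the 3 genes whose probes had the smallest p at 3 h are shown first. Windows run from 250 bases before to 50 bases after an annotated start, 5′ to 3′ on the strand of the gene, from RefSeq on GRCm38.p6. Asic2 codes for a proton-gated cation channel subunit and has 2 annotated starts, at chr11:81152854-81153153 and chr11:81968347-81968646, both on the minus strand. Gabra5, a subunit of the GABA-A chloride channel, starts within chr7:57510010-57510309 on the minus strand, and Cacna1f, the pore subunit of a calcium channel known from photoreceptors, within chrX:7606853-7607152 on the plus strand. Capitals mark matches to TATAAA or GGGCGG on either strand.
Asic2, first start: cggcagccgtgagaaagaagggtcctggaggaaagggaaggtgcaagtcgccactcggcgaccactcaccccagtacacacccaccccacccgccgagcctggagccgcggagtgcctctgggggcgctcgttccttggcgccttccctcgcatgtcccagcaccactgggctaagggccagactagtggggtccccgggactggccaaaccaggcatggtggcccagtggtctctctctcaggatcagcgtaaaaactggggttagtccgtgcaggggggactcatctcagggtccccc
Asic2, second start: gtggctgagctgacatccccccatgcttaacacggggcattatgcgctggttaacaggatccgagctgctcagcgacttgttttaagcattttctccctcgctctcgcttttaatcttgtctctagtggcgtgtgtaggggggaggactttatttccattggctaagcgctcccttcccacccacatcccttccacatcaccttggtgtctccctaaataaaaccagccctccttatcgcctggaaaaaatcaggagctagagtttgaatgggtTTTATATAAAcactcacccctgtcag
Gabra5: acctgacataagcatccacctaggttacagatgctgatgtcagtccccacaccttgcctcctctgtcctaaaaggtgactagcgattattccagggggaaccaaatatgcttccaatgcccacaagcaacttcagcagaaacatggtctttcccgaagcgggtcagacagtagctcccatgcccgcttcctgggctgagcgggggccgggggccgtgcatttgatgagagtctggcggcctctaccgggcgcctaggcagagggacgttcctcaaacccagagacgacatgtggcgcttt
Cacna1f: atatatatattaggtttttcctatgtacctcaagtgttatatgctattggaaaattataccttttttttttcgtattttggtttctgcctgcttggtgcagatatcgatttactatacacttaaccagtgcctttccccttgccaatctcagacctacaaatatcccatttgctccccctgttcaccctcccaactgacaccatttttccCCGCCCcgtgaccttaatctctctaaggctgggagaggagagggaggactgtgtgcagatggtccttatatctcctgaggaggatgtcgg

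The second Asic2 window held 2 overlapping matches to TATAAA, 1 on each strand, the Cacna1f window held 1 match to GGGCGG, and the first Asic2 window and the Gabra5 window held neither. The GC content of the 4 windows was 65.3%, 49.7%, 56.7% and 43.7% in the order printed. RefSeq windows were found for 52 of the 70 genes, 78 windows in all, and their median GC content was 57.7%, against 52.7% over all 32851 windows of the table. TATAAA was present in 7.69% of the channel windows and 13.62% of all windows, and GGGCGG in 42.31% and 35.66%. TTCAGCACC, the left part of the element bound by the neuronal gene repressor REST, was found on either strand in 0 of the 78 channel windows and in 0.37% of all windows. These letters were searched in the windows only, and a match is not a binding site.

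Missing spots were about as common among the channel probes as over the whole array. A spot was taken as not measured where it was empty or held the single repeated extreme value of its array. At 10 h, 14.3%, 22.0% and 22.0% of the channel spots on replicates 1, 2 and 3 were missing, against 12.7%, 19.5% and 18.5% of all spots, so the channel share was higher on 3 of 3 arrays. At 3 h, 29.7%, 34.1%, 34.1% and 26.4% of the channel spots on replicates 1 to 4 were missing, against 30.3%, 32.0%, 34.8% and 25.5% of all spots. The channel share was higher on replicates 2 and 4 and lower on replicates 1 and 3. Averaged over arrays, 19.4% of the channel spots and 16.9% of all spots were missing at 10 h, and 31.0% and 30.7% at 3 h.

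The missing channel spots were spread over more probes. Only 20.9% of the channel probes had a value on all 7 arrays, against 31.3% of all probes, while 27.5% lacked a value on 1 array and 29.7% on 2 arrays, against 19.3% and 18.2%. In turn, fewer channel probes failed the filter, 35.2% against 43.2% of all probes. Of the 32 channel probes that failed, 18 had too few values at 3 h alone, 4 at 10 h alone and 10 at both times. Among those just inside the filter, 15 probes had exactly 2 values at 10 h and 3 at 3 h. Just outside it lay Gria1, an AMPA receptor subunit, with 0.13, 0.08 and -0.26 at 10 h and measured values of 1.73 and -1.65 at 3 h, and Chrne, the epsilon subunit of the muscle acetylcholine receptor, with 0.45, 0.15 and 0.40 at 10 h and -2.62 and -0.22 at 3 h. For 24 genes no probe entered the fit. They included Kcna1, Kcna6 and Kcnc4 of the voltage-gated potassium channels, Kcnj3 and Kcnj8 of the inward rectifiers and the T-type calcium channel genes Cacna1g and Cacna1h.

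Channel probes lay more often at ratios of small whole numbers. After the constant of each array was taken off, 61.3% of the 199 measured channel values at 3 h matched a ratio of 2 whole numbers up to 8 on the log2 scale (tolerance 0.0016), against 49.0% of all values in the fit. The share was higher on 4 of 4 arrays at 3 h, with 64.0%, 56.3%, 66.7% and 58.5% of the channel values against 45.8%, 46.8%, 55.6% and 48.1% of all values. At 10 h it was 11.3% of 159 channel values against 9.0%. On the 3 arrays at 10 h it was 7.41%, 15.7% and 11.1% of the channel values, against 9.45%, 9.47% and 8.20% of all values, and lower than over all values on replicate 1.

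**Figure D1:**
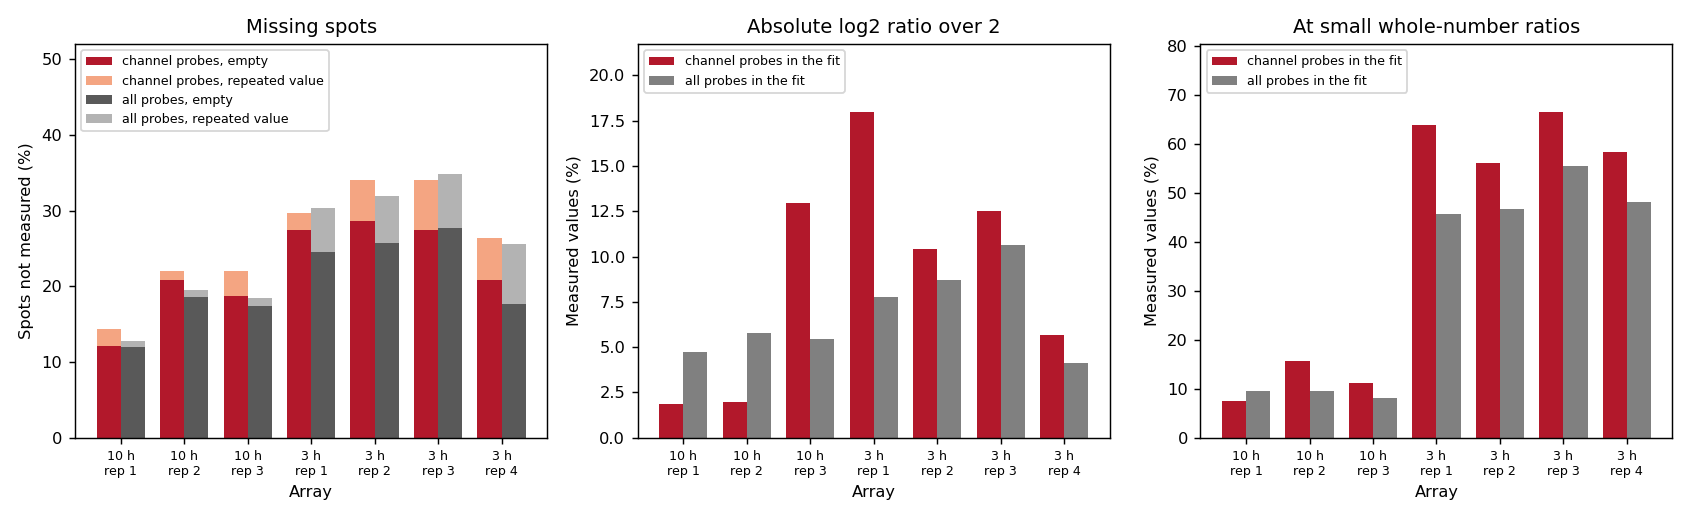
Left, the percent of spots without a measured value on each array, split into empty spots and spots at the repeated value, for the 91 channel probes and all 20355 probes; middle, the percent of measured values over 2 in absolute log2 size; right, the percent at small whole-number ratios, both for the 59 and 11559 probes in the fit. The channel bars exceed those of all probes on every 3 h array in the middle and right panels, while missing spots differ little.

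Values over 2 in absolute log2 size, a ratio beyond 4-fold, were more frequent among the channel probes at 3 h. They made up 23 of 199 channel values, or 11.6%, against 7.7% of all values. By array the shares were 18%, 10.4%, 12.5% and 5.66% of the channel values against 7.77%, 8.72%, 10.6% and 4.10% of all values, higher on 4 of 4 arrays. Replicate 1 stood apart with 9 extreme channel values, 8 of them above 0, and 5 probes of 4 genes shared its value of 2.04. The mean excess over all probes at 3 h was 3.84 percentage points, and it was 2.74 without replicate 1, 1.89 without replicate 4 and 1.07 over the probes with values on all 7 arrays.

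At 10 h, 9 of 159 channel values were extreme, 5.7% against 5.3% of all values. Of these, 7 were on replicate 3, where they made up 12.96% against 5.43% of all values, while replicates 1 and 2 had 1 each, 1.85% and 1.96% against 4.73% and 5.79%. The mean excess at 10 h was 0.28 percentage points, and it was -3.52 without replicate 3 and -1.63 without replicate 1 at 3 h, which changes the probes in the fit. The highest channel value was 3.91, on replicate 1 at 3 h, from a Cacng4 probe, and the lowest was -3.07, on replicate 4 at 3 h, from a probe of Kcnip2. Extreme values were held by 25 of the 59 probes, and 19 of these had 1 each, so few probes were extreme repeatedly.

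The spread between arrays was wider for the channel probes at 10 h. The median SD of the log2 ratio over the arrays of 1 time was 0.54 for the channel probes and 0.36 for all probes at 10 h, and 0.84 and 0.77 at 3 h. At 10 h, 23 of the 59 channel probes (39.0%) lay above the upper quartile of all probes, an SD of 0.83, and at 3 h 17 (28.8%) lay above it, at 1.18. Among probes with no value at a small whole-number ratio at 10 h, the median SD was 0.48 for 44 channel probes and 0.31 for all such probes, so the wider spread was also seen there. The 10 h difference in median SD of 0.18 was 0.07 without replicate 3 at 10 h and 0.05 without replicate 3 at 3 h, a change of the probes in the fit. At 3 h the difference of 0.07 was -0.01 without replicate 1.

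**Figure D2:**
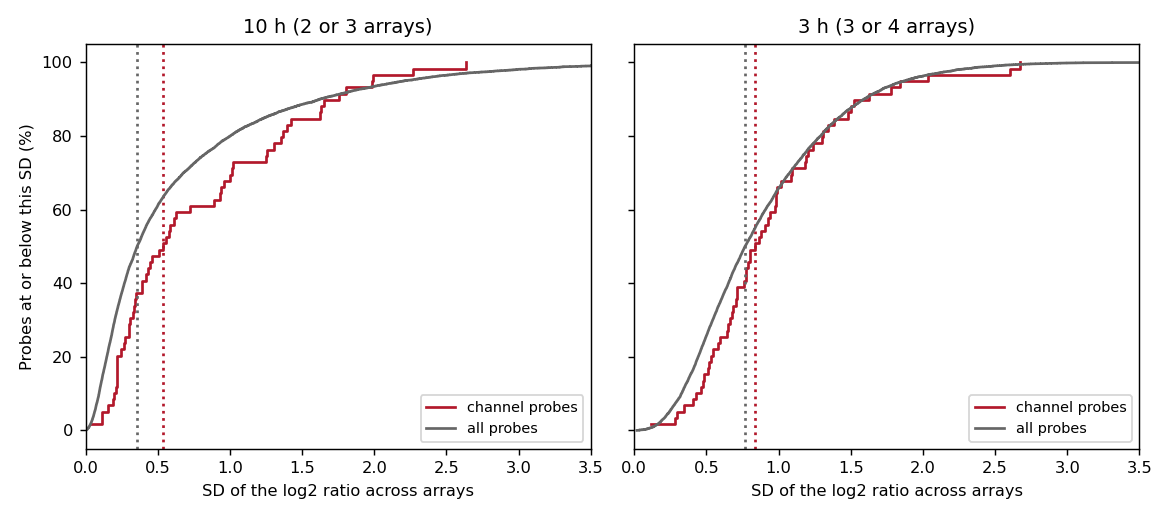
Cumulative percent of probes (y axis) at or below a given SD of the log2 ratio across the arrays of 1 time (x axis), at 10 h (left) and at 3 h (right), for the 59 channel probes and all 11559 probes in the fit; dotted lines mark the medians. The channel curve lies to the right of that of all probes over most of the 10 h panel, with medians of 0.54 and 0.36, and near it at 3 h, with medians of 0.84 and 0.77.

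The arrays ordered the channel probes alike only in part. Across the channel probes, Pearson's r between arrays was -0.04 to 0.05 within 10 h, against -0.10 to 0.09 across all probes, and -0.10 to 0.48 with a median of 0.31 within 3 h, against 0.05 to 0.24 with a median of 0.09. These are correlations across probes, which share arrays and in part genes and are not independent replicates.

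The first comparison asked which channel transcripts differed between treated and non-treated cells at 10 h. None of the 59 channel probes passed limma's test after Benjamini-Hochberg adjustment at 0.05, nor did any other probe (0% of 11559 called), and the smallest adjusted p of a channel probe was 1. At an unadjusted p under 0.05 there were 5 channel probes, 1 higher and 4 lower, or 8.47% against 3.88% of all probes. The lower ones made up 6.78% against 2.32%, and the higher 1.69% against 1.56%. Of the 5, the probes of Chrnb2, Kcnk4, Cacng2 and Kcnu1 had only 2 measured values each at 10 h. The count at an unadjusted p under 0.05 in limma moved with the processing. It was 0 of 19 for probes with values on all 7 arrays and 0 of 46 without replicate 3 at 10 h. With no dye term it was 2 of 59, and with separate fits per time 9 of 59. Shares of all probes under these settings are not given here. The counts therefore do not show whether the channel probes moved apart from all probes. The median fitted log2 ratio was -0.13 for the channel probes and -0.03 for all probes, and 39 of 59 (66.1%) were below 0, against 53.5%. The channel median lay below that of all probes on 3 of 3 arrays, by -0.08, -0.12 and -0.07. A fitted ratio beyond 2-fold in size was found for 10 channel probes, 16.9% against 9.5% of all. Among the 10 were probes of Cacna1b (-0.07 and 0.72 at 10 h) and Grik5 (0.33 and -0.10), fitted at 1.16 and 1.06. Neither had a value on replicate 3, the only 10 h array with treated RNA in Cy3. Their dye term therefore came from the 3 h arrays alone. The mean 10 h values were within 2-fold for these, for Cacna2d3 (0.82) and for Cacng4 probe 7312 (-0.675).

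At 3 h, 0 of 59 channel probes passed (0% of 11559 called), with a smallest adjusted p of 0.201 in limma. At an unadjusted p under 0.05 there were 11, or 18.6% against 13.6% of all probes, 3 higher (5.08% against 3.13%) and 8 lower (13.6% against 10.5%). The median fitted log2 ratio was -0.25 for the channel probes and -0.15 for all probes, and 37 of 59 (62.7%) were below 0, against 61.4%. On single arrays the channel median lay above that of all probes on replicates 1 and 2, by 0.14 and 0.07, and below it on replicates 3 and 4, by -0.16 and -0.42. The first pair carried the treated RNA in Cy5 and the second in Cy3, so the offset turned with the dye, and its SD over the 4 arrays, 0.25, exceeded its mean of -0.09. With the ratios read as Cy5 over Cy3 the difference of the fitted medians, -0.10, was 0.13.

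Between the times, 10 h minus 3 h, 0 of 59 channel probes passed (0% of 11559 called), and the smallest adjusted p was 0.507 in limma. At an unadjusted p under 0.05 there were 6, or 10.2% against 8.11% of all probes, 4 higher (6.78% against 5.37%) and 2 lower (3.39% against 2.74%). The median difference was 0.10 for the channel probes and 0.14 for all. On 8 probes every measured 10 h value lay above every 3 h value (13.6% against 9.87% of all probes), and on 3 every 10 h value lay below (5.08% against 4.72%). The 8 were probes of Asic1, Asic2, Gabra5, Chrna1, Scn3b and Kcnk4 and 2 of Kcnip2, and the 3 were probes of Cacna1d, Cacna1f and Kcnk5.

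**Figure D3:**
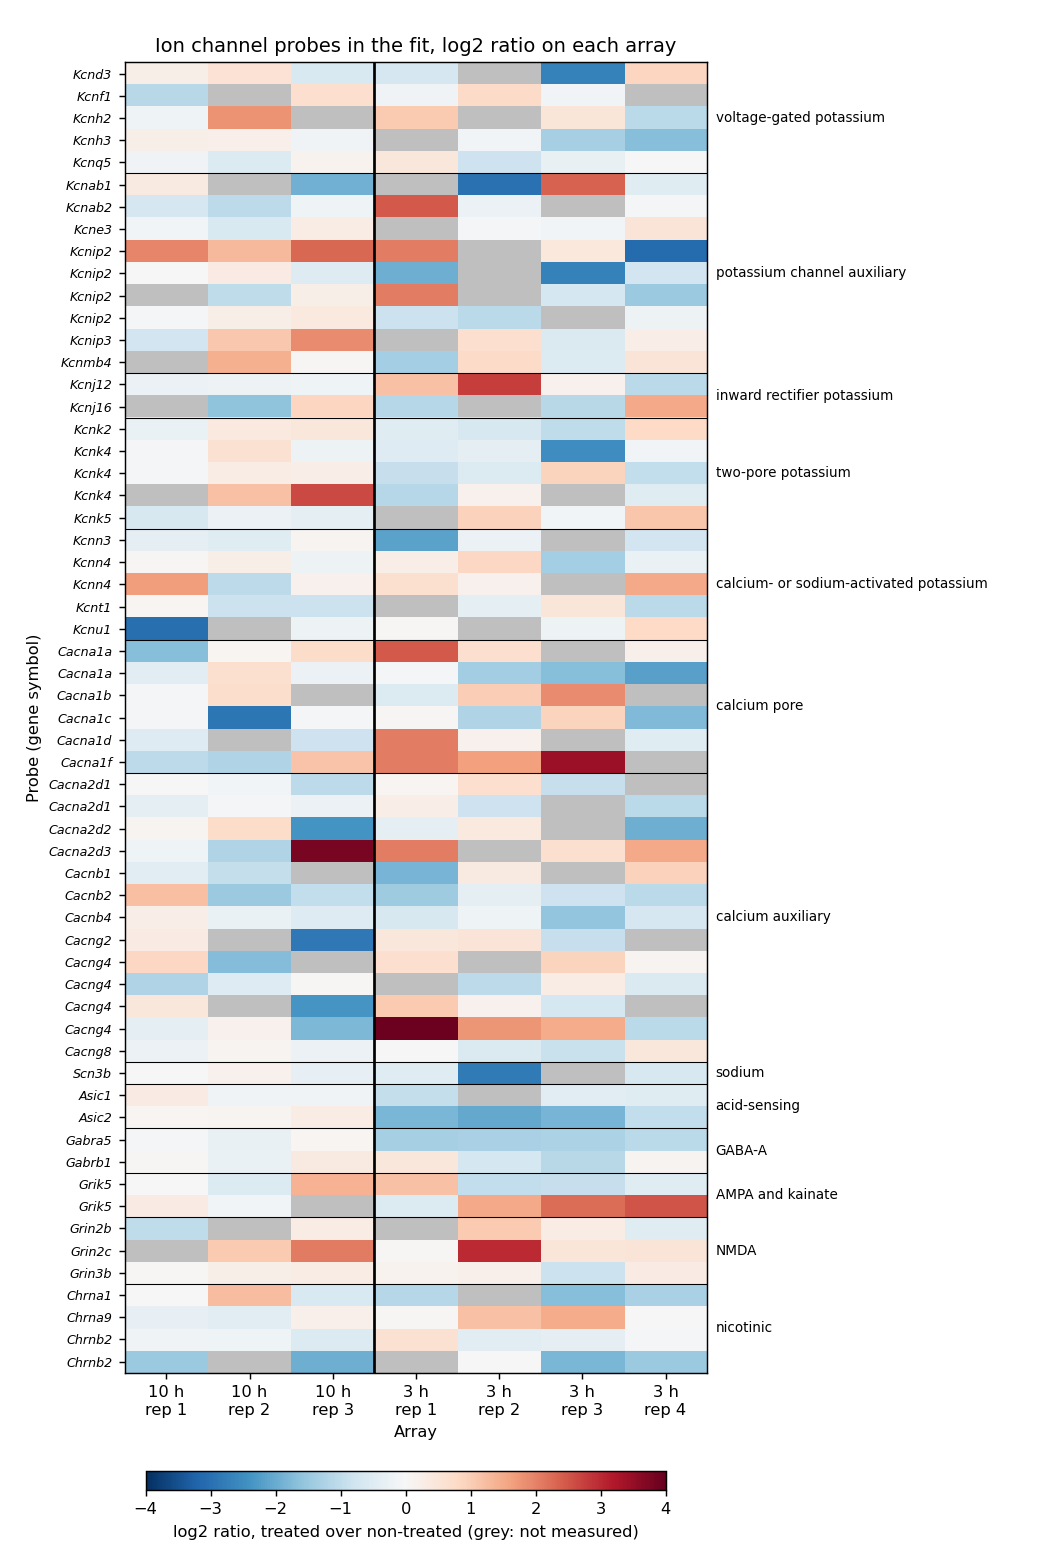
Log2 ratio (colour, treated over non-treated, grey for not measured) of the 59 channel probes in the fit (rows, by gene and family) on the 3 arrays at 10 h and the 4 arrays at 3 h (columns). The 2 acid-sensing probes and Gabra5 are blue on every measured 3 h array and close to white at 10 h, and strong colours elsewhere are mostly on single arrays.

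Among the voltage-gated potassium channel genes, 5 of 10 probes entered the fit, and their fitted log2 ratios ran from -0.20 to 0.15 at 10 h and from -0.90 to 0.37 at 3 h. Kcnh3, an ether-a-go-go type channel of the brain, had 0.25, 0.22 and -0.14 at 10 h, and -0.10, -1.33 and -1.70 on the 3 measured arrays at 3 h (fitted 3 h log2 ratio -0.90, SE 0.32, adjusted p = 0.318 in limma). Its times overlapped. Kcnd3, a fast inactivating A-type channel, had 0.24, 0.56 and -0.62 at 10 h and -0.69, -2.69 and 0.86 on the 3 measured arrays at 3 h, so its single arrays took both signs at both times.

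The auxiliary subunits of potassium channels numbered 9 probes for 6 genes in the fit, with medians of -0.07 at 10 h and 0.02 at 3 h. Kcnip2, a calcium-binding partner of A-type channels that sets their surface number in the heart, had 4 probes, which did not move together. Probe 11982 had 1.96, 1.30 and 2.30 at 10 h, all above 0, and 2.04, 0.41 and -3.07 at 3 h. Its fitted 10 h log2 ratio of 1.63 (SE 0.87, adjusted p = 1) was -0.05 without replicate 3 at 10 h. Only that array carried the treated RNA in Cy3 at 10 h, so without it the dye term came from 3 h alone. The measured 10 h values left were 1.96 and 1.30, which the -0.05 does not describe. Probe 12714 had 0.02, 0.32 and -0.51 at 10 h and -1.96, -2.69 and -0.75 at 3 h, where all 3 measured values were below those of 10 h (10 h minus 3 h 1.67, adjusted p = 0.603 in limma).
Probe 15917 likewise lay lower at 3 h, with -0.09, 0.25 and 0.39 at 10 h and -0.87, -1.08 and -0.19 at 3 h. Probe 13547 had -1.03 and 0.23 at 10 h and 2.04, -0.69 and -1.48 at 3 h, without a common direction.

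Two-pore potassium channels carry the background leak current that sets the resting potential. Kcnk4 codes for a mechanosensitive member and had 3 probes in the fit. Probe 14620 had 1.19 and 2.63 on the 2 measured arrays at 10 h, and -1.14, 0.19 and -0.48 at 3 h. It lay above every 3 h value on both 10 h arrays (10 h minus 3 h 2.28, SE 0.69, adjusted p = 0.577 in limma), but all 3 of its 3 h values and both 10 h values lay at small whole-number ratios. The other two probes of Kcnk4 had fitted 10 h ratios of -0.003 and 0.24, so the probes of this gene were unlike at 10 h, while all 3 were below 0 at 3 h (-0.88, -0.39 and -0.37). Kcnk5, an acid-sensitive leak channel, had -0.66, -0.22 and -0.39 at 10 h and 0.92, -0.10 and 1.10 at 3 h, with every 10 h value lower (10 h minus 3 h -1.12, adjusted p = 0.634 in limma).

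Of the inward rectifiers, which pass potassium more easily into the cell, Kcnj12 had -0.24, -0.19 and -0.17 at 10 h, a narrow range below 0, and 1.19, 2.77, 0.16 and -1.07 at 3 h. Kcnj16 was measured on 2 arrays at 10 h, with -1.62 and 0.86. All 4 values of Kcnj12 at 3 h and all 3 of Kcnj16 were at small whole-number ratios. The group of calcium- and sodium-activated channels was formed by symbol and took in Kcnu1, known from sperm, by its symbol only. Kcnu1 had -3.01 and -0.21 at 10 h and 0.04, -0.22 and 0.78 at 3 h. Its fitted 10 h ratio of -1.61 (SE 0.61, adjusted p = 1) rested on replicate 1. Kcnn3, a small-conductance channel, had -0.36, -0.47 and 0.11 at 10 h and -2.13, -0.23 and -0.77 at 3 h, all 3 below 0.

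Of the pore subunits of voltage-gated calcium channels, 6 of 12 probes entered the fit. At 10 h 5 of the 6 had a fitted ratio below 0, against 53.5% of all probes, and at 3 h 2 did, against 61.4%. Cacna1f had the smallest p of all channel probes at 3 h. It had -1.06, -1.21 and 1.13 at 10 h, and 2.04, 1.65 and 3.44 on replicates 1, 2 and 3 at 3 h, while replicate 4 held the repeated extreme value, which is negative on that array. The 3 h values were all above those of 10 h. Its fitted log2 ratio at 3 h was 2.69 (SE 0.31, adjusted p = 0.201 in limma) and its 10 h minus 3 h difference -2.75 (SE 0.42, adjusted p = 0.507). With the repeated values kept, the 3 h ratio was -2.24. The repeated value has the same sign at every spot of an array, so it cannot decide the direction of a gene. With the ratios read as Cy5 over Cy3, the 3 h ratio was -0.36. As deposited, the 3 h values were above 0 on replicates 1 and 2 (treated RNA in Cy5) and on replicate 3 (in Cy3).

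Cacna1a, the P/Q-type channel of nerve terminals, had 2 probes in the fit that stood on opposite sides at 3 h. Probe 8402 had -0.46, 0.64 and -0.23 at 10 h and -0.06, -1.40, -1.69 and -2.18 at 3 h, all 4 below 0 (fitted 3 h ratio -1.33, SE 0.34, adjusted p = 0.248 in limma). Probe 10488 had -1.69, 0.09 and 0.72 at 10 h and 2.45, 0.67 and 0.20 at 3 h, all 3 above 0, each at a small whole-number ratio. Cacna1d, an L-type channel, had -0.52 and -0.83 at 10 h and 2.04, 0.19 and -0.48 at 3 h.

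The auxiliary subunits of calcium channels were the group with most probes, 13 in the fit for 9 genes. At 10 h, 11 of the 13 had a fitted ratio below 0, against 53.5% of all probes, with a median of -0.48 against -0.03. At 3 h 9 of 13 did, against 61.4%, with a median of -0.26 against -0.15. The lowest single 10 h values of the group, -2.88, -2.40, -2.37 and -1.78, were all on replicate 3, as was the highest, 3.80. This is the only 10 h array with treated RNA in Cy3. Reading the ratios as Cy5 over Cy3 was run for part of the group. The 10 h ratios were then 1.61 for Cacng2, 0.46 for Cacna2d1 (probe 1626) and 1.41 and 0.34 for Cacng4 (probes 19760 and 7312). Probes of 1 gene are not independent, and all those of Cacng4 and Cacna2d1 in the fit were among the 11. Of the 13 probes, 2 at 10 h (Cacna2d2 and Cacng2, both lower) were under an unadjusted p of 0.05, where 3.88% of all probes were, and 3 at 3 h (Cacna2d2 and Cacnb4 lower, 1 probe of Cacng4 higher), where 13.6% of all probes were. None of them passed. Cacna2d2, an alpha2delta subunit bound by gabapentin, had 0.10, 0.73 and -2.40 at 10 h and -0.36, 0.38 and -1.94 at 3 h. The low values were those of the arrays with treated RNA in Cy3, and the fitted ratios, -0.92 at 10 h (SE 0.35, adjusted p = 1) and -1.04 at 3 h (SE 0.35, adjusted p = 0.297), were 1.40 and 0.98 with the ratios read as Cy5 over Cy3 and -0.52 and -0.64 with no dye term. The 10 h ratio was -0.56 without replicate 3 at 10 h, although the 10 h values left, 0.10 and 0.73, were above 0. The dye term of that fit came from the 3 h arrays alone.
Cacng2, also called stargazin, which guides AMPA receptors to the membrane, had 0.34 and -2.88 at 10 h and 0.45, 0.51 and -0.91 at 3 h. Cacnb4, a cytoplasmic beta subunit, had 0.25, -0.27 and -0.51 at 10 h and -0.64, -0.19, -1.58 and -0.68 at 3 h, all 4 below 0 and none at a small whole-number ratio (fitted 3 h ratio -0.77, SE 0.27, adjusted p = 0.293 in limma). Cacnb2 was also below 0 on 4 of 4 arrays at 3 h.

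Cacng4, a transmembrane regulator of AMPA receptors, had 4 probes in the fit. Their fitted 10 h ratios were all below 0, at -1.05, -0.53, -0.41 and -0.96, and their 3 h ratios were 1.52, 0.59, -0.58 and -0.15. The first of them, probe 7312, had -0.40, 0.16 and -1.78 at 10 h and 3.91, 1.77, 1.48 and -1.07 at 3 h, with 3 of the 4 values at 3 h above every value at 10 h (10 h minus 3 h -2.57, SE 0.79, adjusted p = 0.569 in limma). Without replicate 1 at 3 h, its 3 h ratio of 1.52 was 1.0. Single arrays of the other probes took both signs at 10 h, where 2 of the 4 probes had 2 values each.

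**Figure D4:**
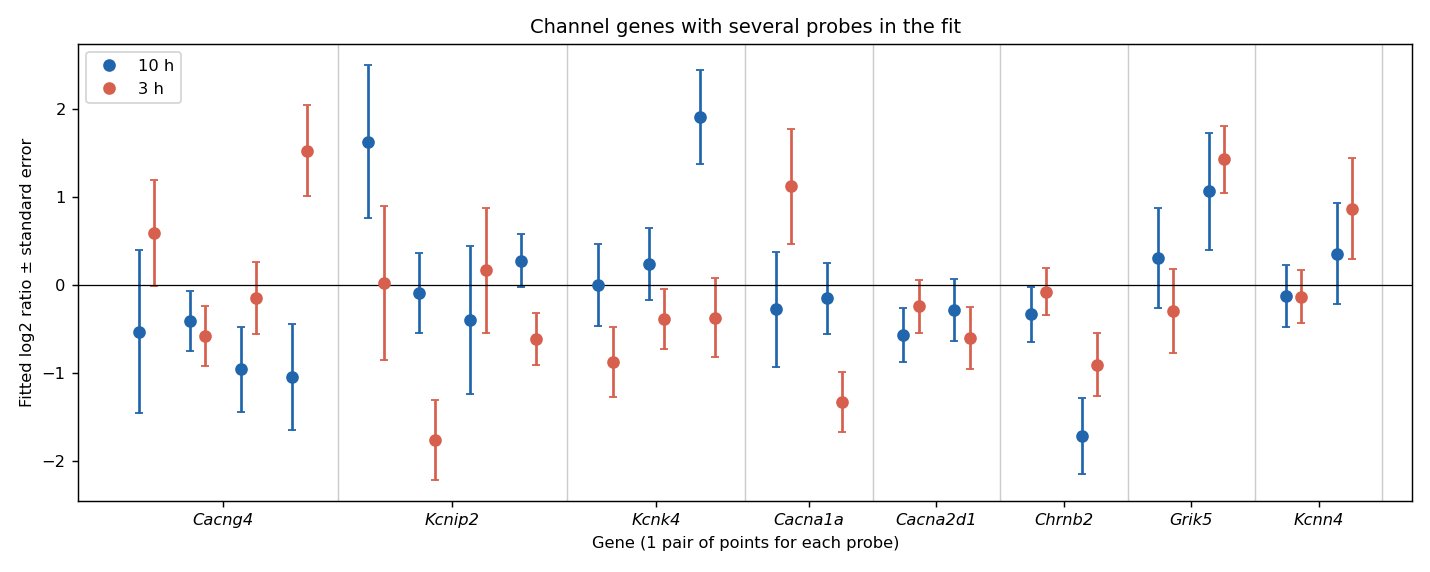
Fitted log2 ratio with its standard error (y axis) at 10 h and at 3 h for each probe of the 8 channel genes with several probes in the fit (x axis), 1 pair of points for each probe. The 4 Cacng4 probes lie below 0 at 10 h and on both sides at 3 h, and the 2 Cacna1a probes lie on opposite sides at 3 h.

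Probes of 1 gene often differed. The 8 genes with several probes gave 20 pairs, of which 13 (65%) had the same sign at 10 h, against 51.72% of the 1918 pairs over all genes, and 9 (45%) at 3 h, against 55.68%. The median gap between 2 probes of a gene was 0.53 for the channel genes and 0.37 over all genes at 10 h, and 0.88 and 0.51 at 3 h. Pairs of 1 gene are not independent, and 12 of the 20 came from Cacng4 and Kcnip2.

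The single sodium channel probe in the fit was for Scn3b, a beta subunit. It had -0.01, 0.19 and -0.34 at 10 h and -0.47, -2.81 and -0.63 at 3 h, lower than every 10 h value on the 3 measured arrays (fitted 3 h ratio -1.26, SE 0.53, adjusted p = 0.372 in limma). Replicate 2 was far below the other two.

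The acid-sensing channels are cation channels opened by protons. Asic2 had 0.07, 0.12 and 0.29 at 10 h and -1.82, -2.06, -1.85 and -0.98 at 3 h. All 3 values at 10 h were above 0, all 4 at 3 h were below it, and none of the 7 lay at a small whole-number ratio. The mean log2 ratio was 0.16 ± 0.12 (SD, n = 3) at 10 h and -1.68 ± 0.47 (SD, n = 4) at 3 h. The 3 h ratio had an SE of 0.25 and an adjusted p of 0.201 in limma, and the 10 h minus 3 h difference was 1.90 (SE 0.39, adjusted p = 0.568). Leaving out single arrays gave 3 h ratios of -1.88 to -1.52, but read as Cy5 over Cy3 it was -0.26. Asic1, the other subunit in the fit, had 0.32, -0.16 and -0.15 at 10 h and -0.97, -0.43 and -0.48 at 3 h, lower than at 10 h on all 3 measured arrays (fitted 3 h ratio -0.65, SE 0.31, adjusted p = 0.417 in limma), with all 3 of the 3 h values at small whole-number ratios. The third, Asic4, was left out with 1 value at 10 h.

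**Figure D5:**
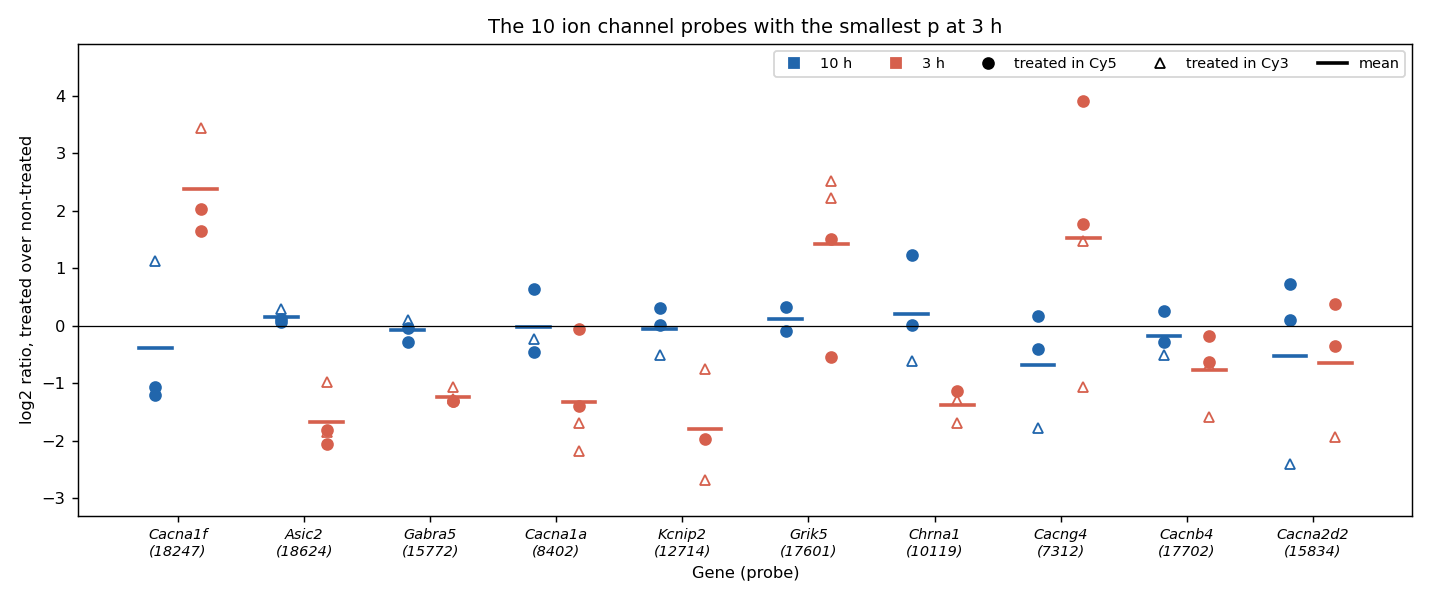
Log2 ratio (y axis) of the 10 channel probes with the smallest p at 3 h (x axis, gene and probe number) on each array, 10 h left and 3 h right, with a bar for the mean; filled circles are arrays with treated RNA in Cy5 and open triangles arrays with it in Cy3. Asic2 and Gabra5 lie close to 0 at 10 h and below -0.9 on all 4 arrays at 3 h.

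Of the GABA-A receptor subunits, which form the chloride channel opened by the inhibitory transmitter GABA, both probes entered the fit. Gabra5 had -0.03, -0.29 and 0.09 at 10 h and -1.32, -1.30, -1.27 and -1.07 at 3 h. Among the 59 channel probes in the fit its 3 h values had the smallest SD, with a mean of -1.24 ± 0.12 (SD, n = 4), against -0.08 ± 0.19 (SD, n = 3) at 10 h. The fitted 3 h ratio had an SE of 0.22 and an adjusted p of 0.202 in limma, and the 10 h minus 3 h difference was 1.19 (SE 0.35, adjusted p = 0.569). Read as Cy5 over Cy3, its 3 h ratio was -0.07. Gabrb1 had 0.05, -0.26 and 0.35 at 10 h and 0.45, -0.69, -1.10 and 0.11 at 3 h, with both signs at each time.

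Among the ionotropic glutamate receptors, the excitatory channels of the brain, the only AMPA and kainate receptor gene in the fit was Grik5, a kainate receptor subunit, with 2 probes. Probe 17601 had 0.33 and -0.10 at 10 h and -0.55, 1.51, 2.22 and 2.52 at 3 h, above 0 on 3 of 4 arrays and at small whole-number ratios on all 4 (fitted 3 h ratio 1.42, SE 0.39, adjusted p = 0.257 in limma). Without replicate 2 at 3 h the ratio was 0.91. Probe 11135 had -0.03, -0.56 and 1.40 at 10 h and 1.19, -0.99, -0.93 and -0.47 at 3 h, mostly below 0, so the probes differed in sign at 3 h. Of the NMDA receptor genes, Grin2c was above 0 on every measured array, with 1.05 and 2.08 at 10 h and 0.04, 2.99, 0.48 and 0.52 at 3 h, but its fitted ratios of 1.56 at 10 h (SE 0.77, adjusted p = 1) and 1.01 at 3 h (SE 0.54, adjusted p = 0.459) did not pass in limma. All 4 of the 3 h values of Grin2c lay at small whole-number ratios, and the lowest, 0.04, was near 0. Grin2b had -1.02 and 0.31 at 10 h and 1.04, 0.31 and -0.48 at 3 h.

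The nicotinic receptor subunits, which form the cation channel opened by acetylcholine, had 4 probes in the fit. Chrnb2, a neuronal beta subunit, had the smallest p of the channel probes at 10 h, from probe 16688 with -1.49 and -1.95 on the 2 measured arrays, against 0.02, -1.84 and -1.48 at 3 h. Its fitted 10 h ratio was -1.72 (SE 0.43, adjusted p = 1 in limma) and turned to 0.23 with the ratios read as Cy5 over Cy3. The second Chrnb2 probe, 15909, had -0.13, -0.18 and -0.53 at 10 h and 0.60, -0.44, -0.40 and -0.07 at 3 h, on the same side of 0 as the first at 10 h but closer to it. Chrna1, the alpha subunit of the muscle receptor, had 0.01, 1.23 and -0.61 at 10 h and -1.14, -1.69 and -1.29 at 3 h, with all 3 of the 3 h values below those of 10 h and at small whole-number ratios (fitted 3 h ratio -1.24, SE 0.38, adjusted p = 0.274 in limma).

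At 3 h a larger share of channel probes than of all probes kept 1 sign on every array, and at 10 h a smaller share did, on small counts. At 3 h, 6 of the 22 channel probes with 4 values were below 0 on all of them, 27.3% against 14.6% of all such probes, and these were probes of Gabra5, Asic2, Cacnb2, Cacnb4, Cacna1a and Kcnk4. Grin2c alone was above 0 on all 4, 4.55% against 3.86%. At 10 h, 6 of 41 were below 0 on all 3 arrays, 14.6% against 14.3%, and 3 were above, 7.32% against 15.6%. None of the 19 channel probes with 7 values had 1 sign throughout, against 2.03% of all such probes.

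Other channel families, taken from a list of 101 genes such as the TRP, P2X, chloride and ryanodine channels, had 43 genes on the array and 34 probes of 29 genes in the fit, and 0 passed in any comparison. At an unadjusted p under 0.05 there were 0 at 10 h, where 3.88% of all probes were. At 3 h 2 were higher (Ano6 and Trpm6) and 1 lower (P2rx2), against 3.13% and 10.5% of all probes, and between the times 1 was higher (P2rx2) and 1 lower (Grid1), against 5.37% and 2.74%. P2rx2, an ATP-gated cation channel, had 0.17, -0.04 and 0.02 at 10 h and -2.72, -1.55, -0.84 and -0.67 at 3 h, below every 10 h value on all 4 arrays, and was singled out after its values were seen. The medians of these 34 probes were -0.08 at 10 h and -0.03 at 3 h, their missing shares 16.7% and 31.0%, and 65.6% of their measured values at 3 h lay at small whole-number ratios, against 65.7% for all 91 channel members.

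Markers of the cell types were compared only by how often they were measured. For 13 fibroblast genes with 27 probes, among them collagens and fibronectin, 8.64% of spots were missing at 10 h and 13.9% at 3 h, and 26.9% of the measured 3 h values lay at small whole-number ratios. For 9 neuronal genes with 13 probes the values were 20.5%, 36.5% and 66.7%, and for 8 skeletal muscle genes with 10 probes 20.0%, 35.0% and 61.5%. The channel members had 19.4%, 31.0% and 65.7%, and all 20355 probes 16.9%, 30.7% and 58.4%. All 3 values of the channel members were above those of the fibroblast markers. Their missing share at 3 h was closer to that of all probes than to those of the neuronal and muscle markers. The other values, the missing share at 10 h and the small-ratio share at 3 h, were closer to those of the neuronal and muscle markers. The part of signal strength in the channel results was not tested, since intensities are not analysed here.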

How the data were processed

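Treated and non-treated fibroblast RNA was labelled indirectly with Cy3 or Cy5 and hybridised together, per the labels' protocols. Those protocols mention organs and a reference pool of control animals, unlike the source names, which were followed. The authors deposited log2 ratios of 20355 probes on 7 arrays. Its base was read from the values and its direction was assumed; the sources used here give no scanner, background correction, normalization or genome build. Empty cells and the value repeated on each array, of absolute size over 15 and near the log2 of 100000, were treated as not measured. Probes were named through the platform annotation: 14030 had 1 symbol, 5 several and 6320 none, and all 91 gene identifiers of the members were found in the RefSeq gene table.

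Each probe with at least 2 values at 10 h and 3 at 3 h entered a linear model of limma (lmFit with eBayes, version 3.58.1 under R 4.3.3) that had a mean per time and a term for the dye, over all 7 arrays and 11559 probes, without further centring. Tests were two-sided, with Benjamini-Hochberg adjustment over all these probes and a threshold of 0.05. The script was tested on simulated data. Medians, SDs, missing spots and extreme values were set beside those of all probes as descriptions, with Python 3.11.15, pandas 2.3.3 and numpy 2.4.6, and figures with matplotlib 3.10.9.

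Named probes were the 10 with the smallest p in each comparison, the 2 with the smallest p in each channel family, those with 1 sign on all 7 arrays (0 probes) and genes with several probes. Members, lists and rules were chosen with earlier results of these data known. Alternatives were the ratios read as Cy5 over Cy3, centring, no dye term, other filters, the repeated values kept, large or small whole-number ratios left out, separate fits per time, a replicate block and each array left out. Between arrays at most 0.39% of values were identical. The number of arrays limits the precision, and their signal depth is unknown.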

Additional observations from a re-analysis of the deposited data

Results flagged for a closer look

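Dixon's test was applied to 25 groups of 4 arrays at 3 h, and 3 held an array far from the others, where chance gives about 1 in 20 groups. The NMDA receptor subunit Grin3b had -0.845 on replicate 3, against 0.141, 0.217 and 0.331 on the other arrays. Grin2c had 2.994 on replicate 2, against 0.035, 0.481 and 0.520. The share of extreme ratios among the channel probes exceeded that of all probes by 10.226 percentage points on replicate 1, against 1.698, 1.882 and 1.562 on replicates 2, 3 and 4.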

How the results depend on the processing

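The count of channel probes that passed was 0 at 10 h, at 3 h and between the times under every alternative run, and the smallest adjusted p in limma was 0.0617, at 3 h among probes with values on all 7 arrays. With the repeated values kept, 6 probes of the whole array passed at 3 h, 0 of them channel probes. No label says that replicate numbers pair arrays, and same-numbered arrays deviated together only weakly (r of 0.023, 0.023 and 0.065). With the replicate block and no dye term, 0 of 50 channel probes passed between the times, 5 were under an unadjusted p of 0.05 and the smallest adjusted p was 0.622. The share of all probes under an unadjusted p of 0.05 in that fit is not given here.

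The channel median less that of all probes at 10 h, -0.103, was -0.06 with the ratios read as Cy5 over Cy3, -0.161 with no dye term, and -0.223 to -0.02 with each array left out. The -0.223 was without replicate 3 at 10 h, where the dye term came from the 3 h arrays alone. At 3 h, -0.098, it was -0.377 with ratios of whole numbers up to 3 left out and -0.193 to 0.075 with each array left out, above 0 without replicate 2, 3 or 4. Between the times it was -0.042, but -0.174 with no dye term, -0.189 read as Cy5 over Cy3, 0.169 for probes with values on all 7 arrays, 0.116 without the small ratios and -0.103 to 0.135 over the arrays left out. The difference in median SD at 10 h was 0.181 in the fit, 0.086 with 2 or more values at each time, 0.078 without the small ratios and 0.051 to 0.202 with arrays left out. At 3 h it was 0.07, 0.175 read as Cy5 over Cy3, 0.122 with 2 or more values, 0.154 without the small ratios and -0.014 to 0.154 with arrays left out. The cause was not tested, apart from the change in the probes that each filter leaves.

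Alternatives were run for the 10 probes with the smallest p in each comparison, not for the other named probes. Of their 373 alternative values, 352 kept their direction and 21 turned, 18 of these read as Cy5 over Cy3. The count does not measure stability, since centring and most filters left a probe's own values almost unchanged. For Chrnb2, Kcnk4, Cacng2, Kcnu1, Grin2c and Cacng4 (probe 19760), leaving out an array with a 10 h value dropped the probe from the fit. Their 10 h ratios were therefore the same with every other array left out. Read as Cy5 over Cy3, the 10 h ratios were 0.23 for Chrnb2, -0.72 for Kcnk4, 1.40 for Cacna2d2, 1.61 for Cacng2, -0.51 for Grin2c, 0.46 for Cacna2d1, -0.07 for Kcnip2 and 1.41 and 0.34 for Cacng4 (probes 19760 and 7312). The 3 h ratios were -0.36 for Cacna1f, 0.60 for Cacna1a, 0.16 for Kcnip2, -0.95 for Grik5, 0.40 for Chrna1, 0.36 for Cacnb4 and 0.98 for Cacna2d2, and 10 h minus 3 h was -0.39 for Kcnk4 and -0.19 for Cacna1a. Kept repeated values turned Cacna1f to -2.24 at 3 h and 1.20 for 10 h minus 3 h. Kcnip2 (probe 11982) at 10 h was -0.05 without replicate 3, in a range of -0.05 to 2.13 with each array left out. Its 10 h values left were 1.96 and 1.30, and the dye term then came from the 3 h arrays alone.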
